A study of Rattus norvegicus with 11 samples.

Results

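The genes followed here are those by which tissue macrophages are recognised, measured in the trigeminal ganglion (TRG) of rats with an inflamed face, namely Aif1, Cd68, Cd163, Mrc1, Csf1r, Itgam, Fcgr1a, Cx3cr1, C1qa and C1qb. They were taken as the probes whose RefSeq accession belongs to 1 of these genes, and they are 10 of the 13903 genes that could be named on the array. The list was chosen with earlier results of these data known. Each gene had 1 probe and each probe 1 spot, so no second measurement on an array stands behind a value.

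Complete Freund's adjuvant (CFA), killed mycobacteria in paraffin oil, was injected on 1 side into the whisker pad of male Wistar rats (50 µl at 1 mg/ml), and both ganglia were removed 7 days later. The CFA group comprised 6 ganglia of the injected side (rats 1, 2, 3, 5, 6 and 8), and the contralateral group 5 ganglia of the other side of the same animals (rats 1, 2, 3, 5 and 6). The other ganglia of the 8 rats in the design text were not analysed here. All rats had received CFA and anaesthesia, so the control is the other ganglion of an injected animal and not that of an untouched one, and no age is given for the rats. Whole ganglia were used, in which fewer cells of a type and less RNA per cell cannot be told apart.

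Macrophages reside in sensory ganglia between the neurons, their satellite glia and the blood vessels, where they take up debris and present antigen, and they are kept alive by signals through the receptor encoded by Csf1r. They increase in ganglia whose nerves have been cut. The comparison of the sides shows how their genes stood when the skin supplied by the ganglion was inflamed. The genes followed here encode receptors for growth factors, chemokines, antibodies and sugars, proteins of the lysosome and the cytoskeleton, and the recognition molecule C1q of the complement system, and none of them is made by macrophages alone. Itgam, for example, is also made by neutrophils, and Aif1, Cx3cr1 and Csf1r by microglia.

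Of the 10 genes, 8 were well above background on all 11 arrays, as judged by the scanner software. Itgam was so on 10 arrays, the exception being the CFA array of rat 1, and Cd163 on none. All 10 measured markers of sensory neurons were well above background on every array, as were 17512 of all 24684 probes. Their detection goes with a neuronal tissue and does not by itself identify the ganglion. By the scan times in the file headers the arrays formed 5 slides scanned on 3 days. Arrays with the same scan time were counted as 1 slide, and no slide label was read. Slide 2 was the single slide that carried both sides (CFA rat 1, contralateral rats 5 and 6). For slide 2 alone, a difference is the value of rat 1 (CFA) less the mean of rats 5 and 6 (contralateral). Slides 1 and 3 carried contralateral ganglia, and slides 4 (CFA rats 2 and 3) and 5 (CFA rats 5, 6 and 8) carried CFA ganglia. Differences between the sides and between these slides therefore cannot be told apart outside slide 2. Values are quantile-normalised log2 signals, which compare 1 probe between arrays and say nothing of 1 gene against another.

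Macrophage genes are commonly switched on by PU.1, a transcription factor of the ETS family that binds purine-rich sequences around GGAA. Promoters were looked up to show what the upstream sequence of a few of the genes looks like, and a RefSeq table for the rat assembly GRCr8 held those of 8 of the 10 genes. The 120 bases before the start of Csf1r, Mrc1, C1qa and C1qb are printed 5′ to 3′ along the strand of the gene, and capitals mark matches to GAGGAA or GGAAGT on either strand. Csf1r and Mrc1 are shown as receptors that moved together over the arrays, and C1qa and C1qb as neighbours on the chromosome that did not. The stretches lie at chr18:56834259-56834378 (plus strand), chr17:82157605-82157724 (plus strand), chr5:154419934-154420053 (minus strand) and chr5:154407828-154407947 (minus strand).
Csf1r: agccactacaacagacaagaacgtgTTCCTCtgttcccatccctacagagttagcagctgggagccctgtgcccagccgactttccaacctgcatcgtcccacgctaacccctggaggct
Mrc1: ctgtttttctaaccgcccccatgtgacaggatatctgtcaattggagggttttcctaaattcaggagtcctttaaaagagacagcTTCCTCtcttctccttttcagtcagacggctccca
C1qa: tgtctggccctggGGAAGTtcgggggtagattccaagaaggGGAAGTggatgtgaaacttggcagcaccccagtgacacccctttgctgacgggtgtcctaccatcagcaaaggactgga
C1qb: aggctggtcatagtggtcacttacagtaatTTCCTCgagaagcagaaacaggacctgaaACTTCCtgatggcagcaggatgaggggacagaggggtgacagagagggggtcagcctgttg

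The stretch of Csf1r holds 1 match and that of Mrc1 1, both to GAGGAA on the opposite strand. C1qa has 2 matches to GGAAGT, and C1qb 1 match to each of the motifs. Over the window of 250 bases before to 50 bases after the start, GAGGAA on either strand was present in 5 of the 8 promoters (Cd68, Mrc1, Csf1r, Itgam and C1qb) and in 27.6% of all 33469 promoters of the table. GGAAGT was present in 5 of the 8 (Cd68, Mrc1, Cx3cr1, C1qa and C1qb) and in 22.6% of all. AGGAAG, which can overlap both, was found in 7 of the 8 and in 34.5% of all, TATAAA in 0 of the 8 and in 14.2%, and CCAAT in 5 of the 8 and in 37.5%. A match is a description of the letters in these windows and shows no binding.

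None of the 10 genes reached the threshold of the study, an unadjusted p of 0.05 or less with an absolute fold change over 2, which 2.02% of the 24684 probes passed. At an unadjusted p of 0.05 or less from limma alone the count was also 0 of 10, against 10.8% of all probes, and at an adjusted p of 0.05 it was 0. The signals of the sides overlapped for every gene, whereas 1.2% of all probes had no overlap. The median log2 difference of the 10 genes (CFA minus contralateral) was -0.095, with quartiles of -0.25 and 0.22. Over all probes the median was -0.041, with quartiles of -0.19 and 0.13. By the intervals of single genes, changes over 2-fold in either direction lay outside the 95% interval for Aif1, Cd68, Mrc1, Csf1r, Fcgr1a, Cx3cr1 and C1qa, and inside it for Itgam, Cd163 and C1qb. These intervals are from the fit without blocks, which does not separate side from slide. With slide or scan day as a block, the largest difference among the first-named genes was that of Fcgr1a, at -0.70 or -0.82. Each is a contrast with 1 CFA array, and no interval is given for it.

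**Figure D1:**
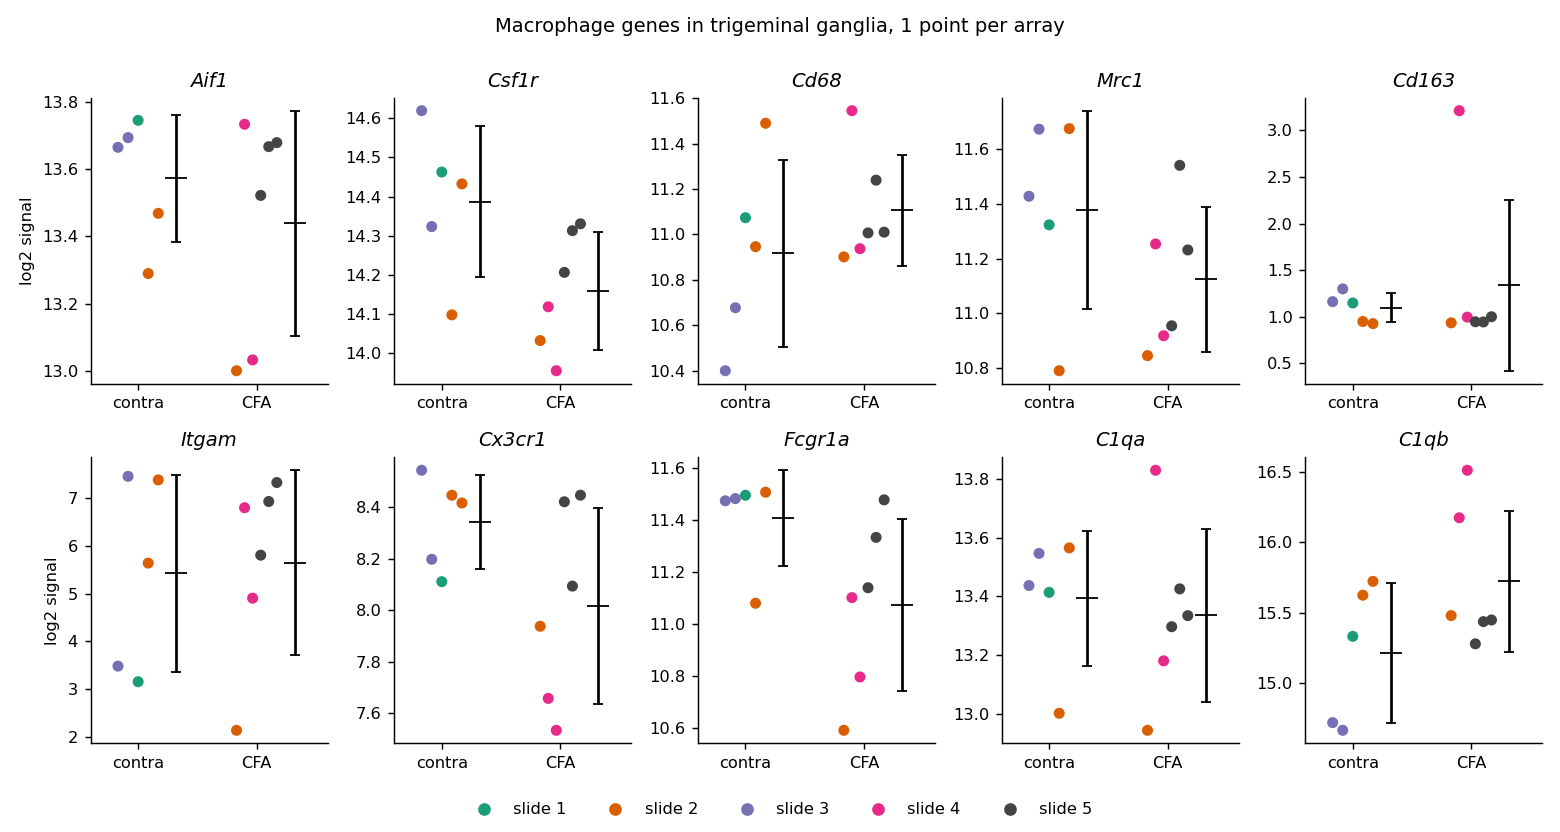
Quantile-normalised log2 signal (vertical axes, each gene with its own range) of the 10 macrophage genes on the 5 contralateral (contra) and 6 CFA arrays, with 1 point per array coloured by slide and bars for the mean ± SD of each group. The sides overlap in every panel, and Itgam spans the widest range, from 2.13 to 7.47.

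Aif1 encodes Iba1, the actin-binding protein of macrophages and microglia that is the usual stain for them in nervous tissue. Its log2 signal on the contralateral arrays was 13.66 (rat 1), 13.69 (rat 2), 13.74 (rat 3), 13.29 (rat 5) and 13.47 (rat 6). On the CFA arrays it ran from 13.001 over a median of 13.59 to 13.73. Rats 1 and 3 were low on the CFA side (13.001 and 13.03), and the other 4 CFA arrays lay within the contralateral range. The difference was -0.13 (standard error 0.16, 95% interval -0.50 to 0.23, adjusted p = 0.748 from limma), with a higher CFA side in 3 of 5 rats.

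Csf1r, the receptor for the growth factors M-CSF and interleukin 34 on which macrophages depend, had 14.62, 14.32, 14.46, 14.10 and 14.43 in the contralateral ganglia of rats 1, 2, 3, 5 and 6. The CFA arrays ranged from 13.96 to 14.33 with a median of 14.16. The contralateral array of rat 5 was the lowest of its side, and 2 CFA arrays (rats 1 and 3) lay under it. The log2 difference was -0.23 (standard error 0.11, 95% interval -0.47 to 0.02, adjusted p = 0.483 from limma), which corresponds to a 0.854-fold level. It was lower on the CFA side in 4 of 5 rats, and the two-sided exact permutation test gave p = 0.0606. This was the narrowest interval of the 10, since the spread of Csf1r within the groups exceeded that of only 29.1% of the probes that were well above background on all arrays.

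Of the ligands of this receptor, Csf1 (M-CSF) had a log2 signal of 9.76 ± 0.20 (SD, n = 6) on the CFA and 10.004 ± 0.12 (SD, n = 5) on the contralateral arrays, and Il34 8.57 ± 0.38 (SD, n = 6) and 8.34 ± 0.31 (SD, n = 5). The differences were -0.24 and 0.23, with adjusted p-values of 0.466 and 0.660 from limma. Over the 11 arrays, Pearson's r of Csf1r was 0.34 with Csf1 and -0.38 with Il34. With the group means taken out these values were -0.04 and -0.24.

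Cx3cr1 encodes the receptor for fractalkine, a chemokine presented by neurons. The contralateral arrays had 8.54, 8.20, 8.11, 8.45 and 8.42 for rats 1, 2, 3, 5 and 6, and the CFA arrays ranged from 7.53 to 8.45 with a median of 8.02. The CFA arrays of rats 2 and 3, both on slide 4, were the lowest (7.66 and 7.53), followed by that of rat 1 (7.94), while rats 5 and 8 reached the contralateral values. The log2 difference was -0.33 (standard error 0.18, 95% interval -0.72 to 0.07, adjusted p = 0.505 from limma). Cx3cr1 was the single gene of the 10 that was lower on the CFA side in all 5 rats, by 0.61 in rat 1, 0.54 in rat 2, 0.58 in rat 3, 0.03 in rat 5 and 0.32 in rat 6 on the log2 scale. The share of all probes with 1 direction in all 5 rats was not computed, so this is a description only. Its ligand Cx3cl1 had 11.91 ± 0.30 (SD, n = 6) and 12.02 ± 0.11 (SD, n = 5) on the CFA and contralateral arrays, a difference of -0.11 (adjusted p = 0.763 from limma).

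Fcgr1a encodes the high-affinity receptor for immunoglobulin G. Its contralateral signals were 11.47, 11.48, 11.50, 11.08 and 11.51 for rats 1, 2, 3, 5 and 6. On the CFA arrays they ranged from 10.59 to 11.48 with a median of 11.12. Contralateral ganglia other than that of rat 5 were thus almost equal, and all CFA arrays but that of rat 8 lay below them. The log2 difference was -0.33 (standard error 0.16, 95% interval -0.69 to 0.02, adjusted p = 0.481 from limma), with a lower CFA side in 4 of 5 rats (p = 0.0736 in the two-sided exact permutation test). With the rat as a block, so that the sides of the same animal were compared, Fcgr1a had a log2 difference of -0.42 (unadjusted p = 0.0456 from limma) and Cx3cr1 one of -0.41 (unadjusted p = 0.0154). In that fit 2 of the 10 genes had an unadjusted p of 0.05 or less, as did 9.9% of all probes, none passed the fold of the study, and the smallest adjusted p of any probe was 0.340.

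Fcer1g, the adaptor through which Fcgr1a signals, and Tyrobp also had negative differences. Fcer1g, the common gamma chain, had 13.04 ± 0.28 (SD, n = 6) on the CFA and 13.25 ± 0.26 (SD, n = 5) on the contralateral arrays, a difference of -0.21 (adjusted p = 0.602 from limma). Tyrobp (DAP12), another adaptor of myeloid receptors, had a difference of -0.19 (adjusted p = 0.754 from limma). Pearson's r of Fcgr1a over the 11 arrays was 0.87 with Fcer1g (Spearman's rho 0.82) and 0.72 with Tyrobp (rho 0.74), and 0.81 and 0.64 without the 2 arrays farthest from the median of Fcgr1a.

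Mrc1 and Cd163 are scavenger receptors of resident macrophages, for mannose-bearing ligands and for haptoglobin-bound haemoglobin. Mrc1 had contralateral signals of 11.43, 11.67, 11.32, 10.79 and 11.68 for rats 1, 2, 3, 5 and 6 and CFA signals from 10.85 over a median of 11.09 to 11.54. The lowest array of all was the contralateral ganglion of rat 5. The log2 difference was -0.25 (standard error 0.18, 95% interval -0.65 to 0.15, adjusted p = 0.592 from limma), lower on the CFA side in 4 of 5 rats. Cd163 gave 1.16, 1.30, 1.15, 0.95 and 0.93 on the contralateral and 0.94 to 3.21 (median 0.97) on the CFA arrays. None of these signals was well above background, so no level or fold of Cd163 is given, and its value of 0.24 for the log2 difference came from the single CFA array of rat 2 (-0.13 without it).

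Cd68, a glycoprotein of the lysosome that rises with phagocytic load, was at 10.40, 10.68, 11.07, 10.95 and 11.49 in the contralateral ganglia of rats 1, 2, 3, 5 and 6. The CFA arrays ranged from 10.90 to 11.55 with a median of 11.01. Both contralateral arrays of slide 3 (rats 1 and 2) were lower than every CFA array, and the other 3 lay within the CFA range. The log2 difference was 0.19 (standard error 0.19, 95% interval -0.23 to 0.61, adjusted p = 0.693 from limma), and it was -0.32 within slide 2.

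**Figure D2:**
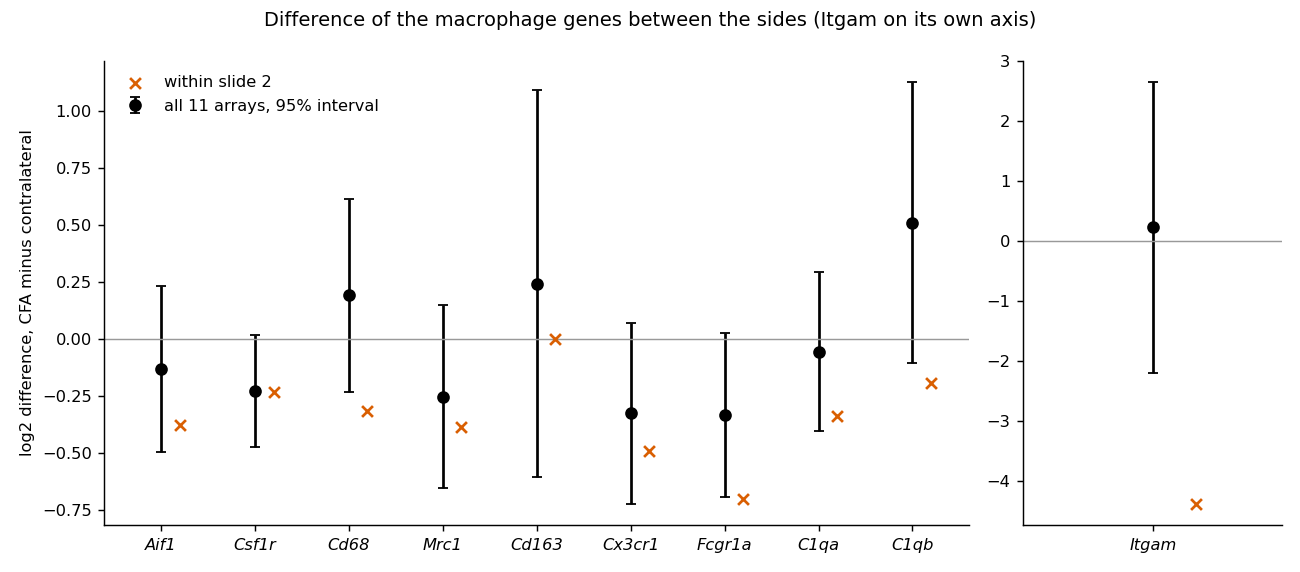
Log2 difference (CFA minus contralateral, vertical axes) of the 10 macrophage genes over all 11 arrays with the 95% interval from limma (black), and within slide 2 (crosses, 1 CFA against 2 contralateral arrays, no interval), with Itgam on an axis of its own. Every interval includes 0, and all 10 crosses lie below 0, where that of Itgam is a value at background on the CFA array.

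C1q is assembled from chains encoded by C1qa, C1qb and C1qc, which are made largely by macrophages and microglia. C1qa had 13.44, 13.55, 13.41, 13.003 and 13.56 contralaterally in rats 1, 2, 3, 5 and 6, and 12.95 to 13.83 (median 13.32) on the CFA arrays. Its sides were the closest of the 10 genes, with a log2 difference of -0.058 (standard error 0.16, 95% interval -0.41 to 0.29, adjusted p = 0.892 from limma). C1qb had 14.72, 14.66, 15.33, 15.62 and 15.72 on the contralateral arrays, and 15.28 to 16.51 (median 15.46) on the CFA arrays. Both contralateral arrays of slide 3 (rats 1 and 2) were low and both CFA arrays of slide 4 (rats 2 and 3, at 16.17 and 16.51) were high, while the other 7 arrays lay between 15.28 and 15.72. The difference of C1qb was 0.51 (standard error 0.28, 95% interval -0.11 to 1.13, adjusted p = 0.508 from limma), the largest of the genes well above background on all arrays, and within slide 2 it was -0.19. C1qc had 11.64 ± 0.30 (SD, n = 6) on the CFA and 11.85 ± 0.28 (SD, n = 5) on the contralateral arrays, a difference of -0.21 (adjusted p = 0.627 from limma).

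C1qb thus did not follow C1qa, and its relation to C1qc depended on the measure. Over the 11 arrays, Pearson's r was 0.63 between C1qa and C1qc (Spearman's rho 0.60), -0.05 between C1qa and C1qb (rho -0.13) and 0.20 between C1qb and C1qc (rho 0.23). With the mean of each slide taken out, r was 0.95 for C1qa with C1qc, -0.15 for C1qa with C1qb and -0.02 for C1qb with C1qc. With the group means taken out these values were 0.63, 0.009 and 0.47. Without the 2 arrays farthest from the median of the first gene of the pair they were 0.39, -0.51 and 0.66. Each of these genes was read by 1 spot on each array, and the part of the probe in the C1qb values was not tested. The partner pairs were 10 in all, and arrays share rats, slides and scan days, so r describes these arrays.

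**Figure D3:**
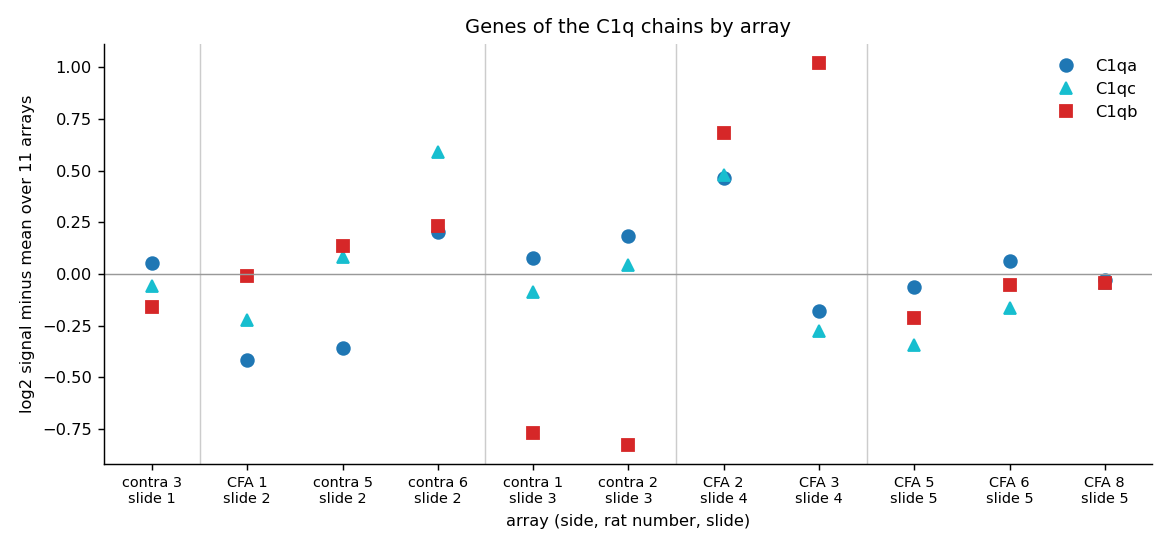
Log2 signal of C1qa, C1qb and C1qc minus the gene's mean over the 11 arrays (vertical axis), by array in the order of the slides (horizontal axis, with lines between slides). C1qb lies lowest on slide 3 and highest on slide 4, at 1.02 on the CFA array of rat 3, where C1qa and C1qc lie below 0. On the CFA array of rat 2 all of these genes lie above 0.

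Itgam encodes CD11b, the alpha chain of the complement receptor 3 of macrophages, monocytes and neutrophils, and it varied by far more than the others. Its contralateral signals were 3.48, 7.47, 3.15, 5.64 and 7.39 for rats 1, 2, 3, 5 and 6, and the CFA signals were 2.13, 6.81, 4.91, 5.81, 6.94 and 7.34 for rats 1, 2, 3, 5, 6 and 8. High and low arrays occurred on both sides. The spread within the groups exceeded that of 99.8% of the probes that were well above background on all arrays, and the log2 difference of 0.23 had a standard error of 1.1 (95% interval -2.20 to 2.65, adjusted p = 0.941 from limma).

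The level of Itgam went with the animal more than with the side. Of the 5 rats with both sides, rats 1 and 3 had the lowest signals on either side, rats 2 and 6 the highest, and rat 5 lay between them. With the group means taken out, the sides of the same rat lay apart by a median of 0.55 (5 pairs) and sides of different rats by 2.41 (20 pairs) on the log2 scale. The ratio of these gaps was 0.229 for Itgam against a median of 1.05 for 17495 probes well above background on all arrays, of which 2.1% had a lower ratio. It was 0.364 for Mrc1 and 0.498 for Cx3cr1, and between 0.881 and 2.30 for the other members. The ratio was computed after the values had been seen, and is given as a description.

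Other genes were set beside Itgam because it is shared by several cell types. Gfap, the intermediate filament of astrocytes and of reactive satellite glia, was at 15.23, 10.97, 14.998, 10.23 and 11.002 contralaterally in rats 1, 2, 3, 5 and 6. On the CFA side of rats 1, 2, 3, 5, 6 and 8 it was at 15.19, 14.06, 15.33, 10.13, 10.67 and 10.74. All 4 ganglia of rats 1 and 3 combined high Gfap with low Itgam, whereas the CFA ganglion of rat 2 had high Gfap and an Itgam of 6.81. Pearson's r of Itgam with Gfap was -0.75 over the 11 arrays, and -0.88 with slide means taken out. Gfap was picked for this relation from the satellite glia list, of which 6 genes were well above background on all arrays. Their median r with Itgam was -0.09, and 3 of the 6 were positive, from -0.75 for Gfap and -0.58 for Slc1a3 to 0.49 for Fabp7. On slide 2 the CFA array had an Itgam signal of 2.13 and a Gfap signal of 15.19, while the contralateral arrays had Itgam at 5.64 and 7.39 and Gfap at 10.23 and 11.002. Itgam was not well above background on that CFA array, so no measured fold is given. With Itgam set there at the lowest signal of any probe well above background on that array, it was 7.48-fold lower than the mean of the contralateral arrays of the slide. The limit of the Itgam spot itself is not known, so this figure is approximate, and it rests on 1 CFA array. With slide as a block, where the contrast comes from these 3 arrays, Itgam was the 1 gene of the 10 past the threshold of the study, against 2.56% of all probes.

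Neutrophil genes also differed between the rats. Of 9 listed, 6 were measured, and their summed linear signal ran from 3740 to 44787 (median 14802) on the CFA and from 4357 to 34011 (median 19558) on the contralateral arrays. S100a8, a calcium-binding protein of neutrophils and monocytes, had 11.64 and 11.54 in rat 1, 14.26 and 12.72 in rat 2, 13.74 and 14.47 in rat 3, 11.76 and 11.31 in rat 5 and 14.52 and 14.83 in rat 6 (contralateral, then CFA). Rat 3 was thus high in S100a8 and low in Itgam. Pearson's r of Itgam was 0.83 with Csf3r, the receptor for granulocyte growth factor, and 0.52 each with S100a8 and Camp. With Itgb2, the beta chain that pairs with CD11b, r was 0.69 (rho 0.65), and 0.55 without the 2 arrays farthest from the median of Itgam. The relation was not particular to neutrophil genes. Median r of Itgam was 0.52 for neutrophil, 0.60 for B cell, 0.57 for dendritic or mast cell and 0.47 for monocyte genes. It was 0.31 for T cell, -0.02 for sensory neuron and -0.23 for endothelial genes. These medians cover the genes well above background on all arrays. The part of the glial and neutrophil genes in the Itgam values was not tested.

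**Figure D4:**
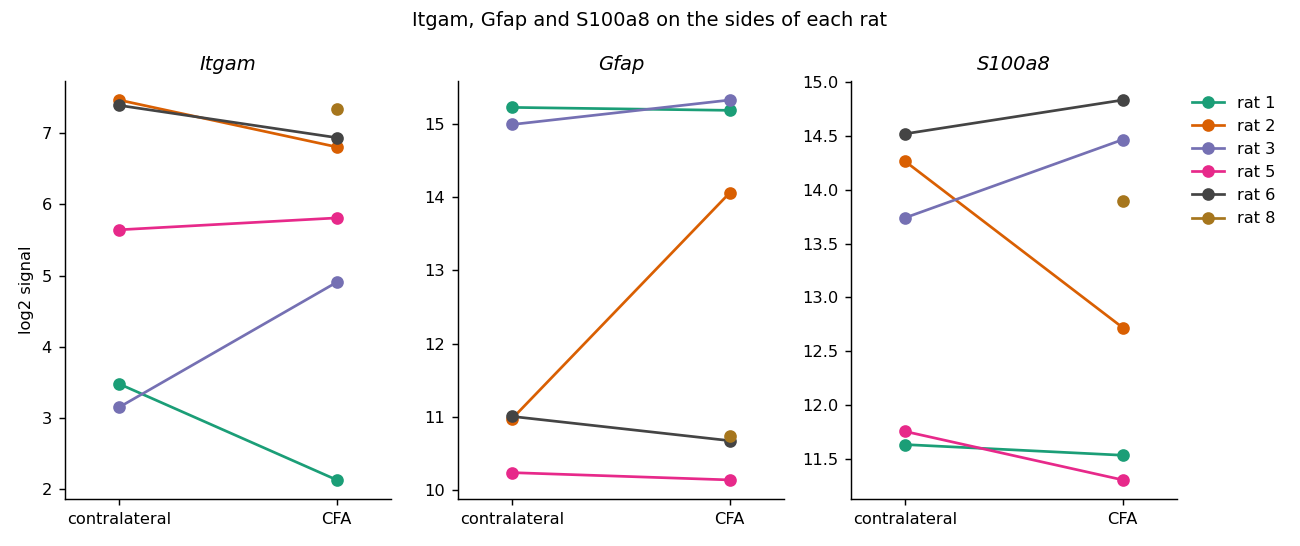
Log2 signal (vertical axes) of Itgam, Gfap and S100a8 in the contralateral and CFA ganglia, with lines joining the sides of a rat and a lone point for rat 8. Itgam is lowest in rats 1 and 3 on both sides (2.13 to 4.91), where Gfap is at 14.998 to 15.33.

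A set of 5 genes rose and fell together over the arrays. For Aif1, Mrc1, Csf1r, Fcgr1a and C1qa, a set chosen after the correlations had been seen, Pearson's r of the 10 pairs ran from 0.45 to 0.88 with a median of 0.74. The highest was that of Csf1r with Fcgr1a (0.88, rho 0.88) and the next that of Aif1 with Fcgr1a (0.85, rho 0.60). The median was 0.73 with the group means and 0.77 with the slide means taken out. Within the 6 CFA arrays it was 0.78. The relation was not particular to macrophage genes. In the order Aif1, Mrc1, Csf1r, Fcgr1a and C1qa, median r was 0.65, 0.55, 0.47, 0.56 and 0.44 with T cell genes. It was 0.35, 0.43, 0.37, 0.53 and 0.34 with other macrophage genes and 0.34, 0.58, 0.41, 0.36 and 0.32 with partner genes. With satellite glia genes it was -0.21, -0.08, -0.10, -0.22 and -0.02. These medians cover the listed genes well above background on all arrays.

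The arrays on which these 5 genes moved can be named. All 5 lay below their own means in the CFA ganglia of rats 1 and 3 and the contralateral ganglion of rat 5, by an average of 0.43, 0.34 and 0.27 on the log2 scale. All 5 lay above them in the contralateral ganglia of rats 1, 2 and 3 and the CFA ganglion of rat 6. Without the CFA arrays of rats 1 and 3, which are 2 of the 3 lowest, the median r was 0.55 (range 0.15 to 0.85). With the 2 arrays farthest from the median left out pair by pair it was 0.58, and with single arrays left out it was between 0.67 and 0.82. Both contralateral ganglia of rats 1 and 3 were high in the 5 genes and in Gfap, and the CFA ganglia of these rats were low in the 5 genes and high in Gfap.

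Over all 45 pairs of the 10 genes the median r was 0.35, with 32 pairs above 0 and a range from -0.69 to 0.88. Cd163, not well above background on any array, is among these genes. Without Cd163 and Itgam the median was 0.38 over 28 pairs, with 18 above 0. Among 61566156 pairs of 11097 named genes well above background on all arrays the median was 0.06. C1qb stood apart from the rest, with a mean r of -0.20 and a positive r with 3 of 9 genes (Cd68, Cd163 and Itgam). These were 0.63 with Cd68 (rho 0.45), 0.305 with Cd163 (rho -0.25) and 0.08 with Itgam (rho -0.07). The lowest values of C1qb were with Cx3cr1 (-0.69) and Csf1r (-0.68), and with slide means taken out these were 0.20 and 0.31. Cd68 had an r of 0.41 with C1qa over all arrays and of 0.97 with slide means taken out. Slide means leave few arrays to compare, since slide 1 held 1 array and slides 3 and 4 held 2 each.

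**Figure D5:**
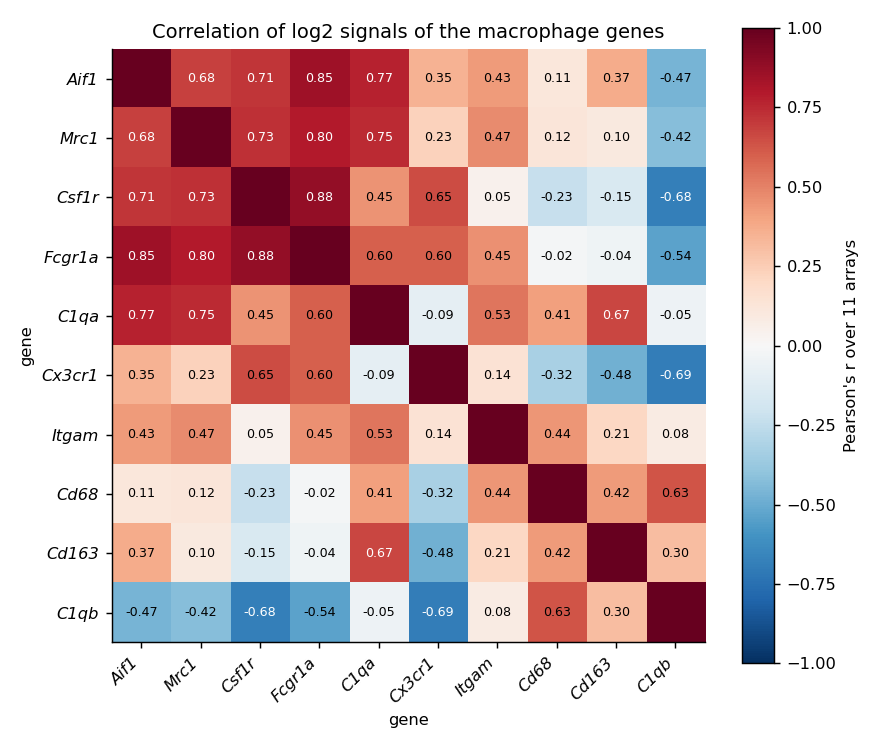
Pearson's r of log2 signals over the 11 arrays for each pair of the 10 macrophage genes (rows and columns, colour scale from -1 to 1). Aif1, Mrc1, Csf1r, Fcgr1a and C1qa form a block with r from 0.45 to 0.88, and C1qb has negative values with all of these.

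Compared rat by rat, the CFA side was lower than the contralateral side for 8 of the 10 genes in rats 1, 3 and 6, for 5 in rat 2 and for 3 in rat 5. The median difference over the genes was -0.58 in rat 1, -0.08 in rat 2, -0.32 in rat 3, 0.08 in rat 5 and -0.16 in rat 6. Since no rat had both ganglia on 1 slide, these differences hold the differences between slides too. The share of all probes that were lower on the CFA side of each rat was not computed.

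The genes most like the 10 in their pattern were found among 10980 named genes outside the lists, by mean Pearson's r with the 10 over the 11 arrays after the group means had been taken out. Among the 8 highest were Mnda (mean r 0.55), Exoc3l4 (0.54), Epsti1 (0.52), Dsc2 (0.52), Ripk3 (0.51), Itgal (0.51) and Ildr1 (0.50). Mnda encodes a nuclear antigen of myeloid cells and Itgal the alpha chain of the leukocyte integrin LFA-1. None of these passed the threshold of the study.

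Partners of the members were measured completely, 15 of 15, among them ligands, adaptors, complement proteases and transcription factors. None passed the threshold, and their median difference was -0.13. The smallest p was that of Cebpa, a transcription factor of myeloid cells, with a log2 difference of 0.55 (standard error 0.22, adjusted p = 0.435 from limma). Spi1, which encodes PU.1, had 8.63 ± 0.24 (SD, n = 6) and 8.56 ± 0.27 (SD, n = 5) on the CFA and contralateral arrays.

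Of 29 further macrophage genes, 24 were measured, with a median difference of 0.01. Past the threshold were 2 of them, both higher on the CFA side, and 2.02% of all probes. Mpeg1, a pore-forming protein of macrophages, had a log2 difference of 1.16 (adjusted p = 0.431 from limma, standard error 0.44), with a signal well above background on 4 arrays of the CFA and 3 of the contralateral side. Cd209a, a C-type lectin, had a difference of 1.11 (adjusted p = 0.435 from limma, standard error 0.43), with 6 CFA and 4 contralateral arrays well above background. Within slide 2 these differences were -0.23 and 0.39. Adgre1, the classical macrophage marker of mice, did not pass, with 11.26 ± 0.24 (SD, n = 6) on the CFA and 11.40 ± 0.27 (SD, n = 5) on the contralateral arrays.

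Of 9 microglial genes none passed, and the smallest p was that of the fructose transporter Slc2a5 (log2 difference -0.44, standard error 0.14, adjusted p = 0.368 from limma). Of 7 measured monocyte genes none passed. Of 15 genes of macrophage activation 14 did not pass, while 2.02% of all probes passed. Il12b, a subunit of interleukin 12, passed and was lower on the CFA side (-1.18, standard error 0.39, adjusted p = 0.389 from limma). Within slide 2 it had a difference of -0.01. The median differences of these lists were -0.01, -0.07 and 0.04.

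Among markers of other cells, 2 of 6 neutrophil genes passed, both higher, namely the chemokine receptor Cxcr2 (1.49, adjusted p = 0.459 from limma) and lactoferrin, Ltf (1.21, adjusted p = 0.426). The signal of Ltf was well above background on 4 CFA arrays and 1 contralateral array. Of 5 B cell genes the transcription factor Pax5 was higher (1.17, adjusted p = 0.435 from limma). Within slide 2 the difference was 0.04 for Cxcr2, 0.57 for Ltf and 0.30 for Pax5. None passed among 9 T cell, 8 dendritic or mast cell, 3 red blood cell, 10 sensory neuron, 7 satellite glia, 6 fibroblast and 4 endothelial genes. The smallest p-values of those lists belonged to Cd8a (-0.46), Kit (0.21), Alas2 (-0.44), Calca (0.26), Pdgfra (-0.14) and Tek (-0.30), given with their log2 differences, and for satellite glia to Kcnj10, which was not well above background on any CFA array.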

How the data were processed

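RNA of 11 trigeminal ganglia was measured, each on 1 single-colour Arraystar lncRNA and mRNA array labelled with Cy3, and groups were taken from the side and rat number in the labels. The intensity values were deposited by the authors as scanner output (Agilent Feature Extraction, version 11.0.1.1 in the headers), with the background of each spot subtracted. The authors also deposited a table of quantile-normalised intensities, used as an alternative.

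Here the log2 processed signal of 42136 non-control spots was quantile normalised, outlier-marked spots (1.38%) being set to missing first, and spots that share a probe were averaged (24684 probes). Limma 3.58.1 in R 4.3.3 compared the groups over all probes with no trend and no pairing, as the study's methods name none, and p-values were adjusted by Benjamini-Hochberg. The limits were those of the study, an unadjusted p of 0.05 and a fold of 2. For single members an exact permutation test (two-sided, 462 arrangements, smallest p 0.00433) was added. Correlations are given without p, as arrays share rats, slides and scan days. Python 3.11.15 and pandas 2.3.3 were used for the tables.

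Probes were named from their accessions through a RefSeq table of a later assembly than the rn4 of the file headers, which matched 14274 of 15321 mRNA probes, and the brightest probe stood for a gene of the lists. The rule for named genes took all members, those past the threshold of each list (up to 4) or else the one with the smallest p, the 8 genes most like the members, and members that changed sign. Some genes that the rule names, and the Schwann cell result, are not reported here. The members and lists (partners, other macrophage genes, microglia, monocytes, activation, neutrophils, T cells, B cells, dendritic and mast cells, red blood cells, sensory neurons, satellite glia, Schwann cells, fibroblasts and endothelium) were chosen with earlier results of these data known. Gfap, S100a8, Camp and Csf3r were set beside Itgam after their values had been seen, and C1qc, Itgb2, Fcer1g, Tyrobp, Csf1, Il34, Cx3cl1, Spi1 and Adgre1 were named as partners or classical markers.

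Sides with 1 rat number are taken to come from 1 animal, so pairing comes from the design. Across probes, the correlation of a rat's sides after removal of group means ran from -0.083 to 0.13 over the 5 rats. For none of these rats was its own contralateral array the one most correlated with its CFA array, so the values do not show the pairing. The alternatives were other background corrections, scalings and filters, the deposited table, a trend, blocks for rat, slide and scan day, slide 2 alone, and each array left out. For the background corrections the median spot signal was used in place of the mean signal that had been planned, as the scanner tables used here hold the former. Precision is limited by the number of arrays.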

Additional observations from a re-analysis of the deposited data

Results flagged for a closer look

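Among 20 groups of values (10 genes on 2 sides), 3 held an array whose gap to its nearest neighbour was large for the range of the group, where chance flags about 1 in 20. The CFA array of rat 2 had a log2 signal of 3.21 for Cd163, while the other CFA arrays had 0.94 to 1.001. The contralateral array of rat 5 had 11.08 for Fcgr1a and 13.003 for C1qa, each the lowest of its side, and the same array was the lowest of its side for Aif1, Mrc1 and Csf1r.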

How the results depend on the processing

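Aif1, Mrc1, Csf1r, Fcgr1a and Cx3cr1 kept a negative difference under all 22 alternatives tried for each, but the sizes moved, from -0.57 to -0.046 for Aif1, -0.53 to -0.18 for Mrc1, -0.36 to -0.15 for Csf1r, -0.82 to -0.24 for Fcgr1a and -0.49 to -0.21 for Cx3cr1. The alternatives reuse the same arrays and are not separate checks. A slide block and slide 2 alone gave the same differences, as did a rat block and leaving out the CFA array of rat 8. C1qa was at -0.34 with a slide block and -0.45 with a scan day block. Scan day 1 held the contralateral arrays and the CFA array of rat 1, and the other days held CFA arrays only. The scan day contrast therefore sets that 1 CFA array against the contralateral arrays. No member passed the threshold of the study in the fit without blocks, and 1 did with slide as a block, Itgam at -4.38 (unadjusted p = 0.0356 from limma), where 2.56% of all probes passed. That contrast sets 1 CFA array, on which Itgam was not well above background, against 2 contralateral arrays of slide 2, and the lone array is assumed to vary like the others. The median difference of the members (-0.095) was -0.36 within slide 2 or with a slide block, and -0.43 with a block for scan day. The differences of Cd68, Cd163 and C1qb turned to -0.32, -0.0031 and -0.19 with a slide block or within slide 2, where Itgam was at -4.38 too. Under a scan day block Cd68 was at -0.016, Cd163 at -0.16 and Itgam at -3.29. Cd163 was at -0.0022 without background correction and -0.015 with normexp. With the rat as a replicate block, Itgam was at -0.11, and the blocked values of Fcgr1a and Cx3cr1 stand with their results. With single arrays left out Cd163 ran from -0.13 to 0.32, Itgam from -0.34 to 0.93 and C1qa from -0.16 to 0.020, which was positive without the CFA array of rat 1. Cd163 changed sign without the CFA array of rat 2, and Itgam without the contralateral arrays of rats 1 or 3 or the CFA arrays of rats 2, 6 or 8. With slide or scan day as a block, Fcgr1a was at -0.70 and -0.82, each a contrast with 1 CFA array. Csf1r reached an unadjusted p of 0.05 or less from limma with scaling to the 75th percentile or a trend. So did 8.13% and 11.2% of all probes. With 1 array left out 0 to 3 members reached that limit, against 6.67% to 15.6% of probes. The 3 were Csf1r, Mrc1 and Fcgr1a without the contralateral array of rat 5 (13%), and Fcgr1a, Cx3cr1 and Csf1r without the CFA array of rat 8 (10.2%). Cx3cr1 alone reached it without the CFA array of rat 5, and Fcgr1a alone without that of rat 6. The median r of the 45 pairs (0.35) was 0.15 with scaling to the 75th percentile, 0.60 with slide means taken out and 0.16 without the CFA array of rat 1. The causes of these shifts were not tested. Over all probes 47 passed the threshold without background correction, 16 with normexp, and 330 to 796 with 1 array left out (330 without the contralateral array of rat 1, 771 and 796 without those of rats 5 and 6). Averaging the probes of a gene gave no other value, as each member has 1 probe, and a filter on dim probes removed Cd163. Signals of Cd163 are limited by the background, and so are the low ones of Itgam, whose difference of 0.23 was 0.072 without background correction and 0.032 with normexp. All members are limited by the number of arrays.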
